A study of Homo sapiens with 18 samples.

Results

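MCF10A is a non-transformed line of human mammary epithelial cells, and the data described here are its transcripts with and without 10 Gy of radiation. They come from the 6 libraries, of 18 in the series, whose titles name an MCF10A monoculture that was either non-treated (NIR, 3 libraries) or irradiated (IR, 3 libraries), and all 40916 gene symbols of their tables were used. All 6 cultures were of MCF10A cells expressing H2B-GFP, a fluorescent protein fused to a histone. They were described as grown in F12:DMEM with horse serum, epidermal growth factor, hydrocortisone, cholera toxin and insulin. Whether the reporter line is a clone and which kind of radiation was used are not given in the sources used here. Cells were taken on day 2 by the titles but 72 h after irradiation by the series text, which the tables cannot settle. Replicates were described as biological, but nothing says how far apart the cultures were kept, so p-values measure the spread between these libraries. The remaining libraries hold HCT116, a colorectal carcinoma line described as p53-null and grown in another medium, and mixtures of both lines. Targets of p53 rose in these HCT116 libraries too, against their label (values at the end). The 6 HCT116 monoculture libraries (3 NIR, 3 IR) serve below only for a test of where the MCF10A response differed.

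Ionizing radiation breaks DNA strands, and cells with working p53 answer by stabilizing that protein, which switches on genes for arrest, repair and death. Its target CDKN1A (p21) blocks the kinases of the cell cycle, after which the RB family and the DREAM complex shut E2F target and mitotic genes through short elements in their promoters. Epithelial cells that stay arrested for days are known for losing lamin B1 and for secreting interleukins, chemokines and proteases.

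The NIR libraries held 29278178 to 35497721 counts and the IR libraries 27216519 to 34011107. At least 1 count was seen for 19356 to 19813 genes in the NIR and for 21075 to 21539 genes in the IR libraries. Mitochondrially encoded genes took 5.19% ± 0.116 of counts in the NIR and 6.20% ± 0.146 in the IR group (SD, n = 3 each). The first principal component, with 63.9% of the variance, separated the treatments. On the second, with 10.6%, NIR replicate 2 lay at -31.9, against 10.2 and 23.9 for the other NIR libraries. The label was checked against marker lists. All 14 basal mammary markers were tested, and their summed level was 15680 to 16861 CPM (counts scaled to a library total of 1000000) in the NIR and 25257 to 25709 CPM in the IR libraries, against 1127 CPM in non-irradiated HCT116. The 12 HCT116 and intestinal markers summed to 9.73 to 11.7 CPM in the NIR and 8.49 to 11.3 CPM in the IR libraries, against 1513 CPM in HCT116. CDX1, CDX2 and GPA33 had no counts, and KRT19 had none in the NIR libraries and 22 over the IR libraries. Because these are bulk libraries, fewer cells of a type and less RNA per cell cannot be told apart.

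Irradiation moved 55.4% of 15154 tested genes (edgeR quasi-likelihood test, Benjamini-Hochberg adjusted p under 0.05, hereafter "called"). Genes called higher in IR made up 26.2% of those tested and genes called lower 29.2%, and the median log2 fold change of all tested genes was 0.0035. A change of at least 2-fold was called higher for 7.13% and lower for 3.37% of tested genes. In 60.6% of tested genes the IR libraries did not overlap the NIR libraries. These shares are the background for every gene list below. Of all called genes, 47.4% were higher, and 57.5% were with upper-quartile normalization.

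**Figure D1:**
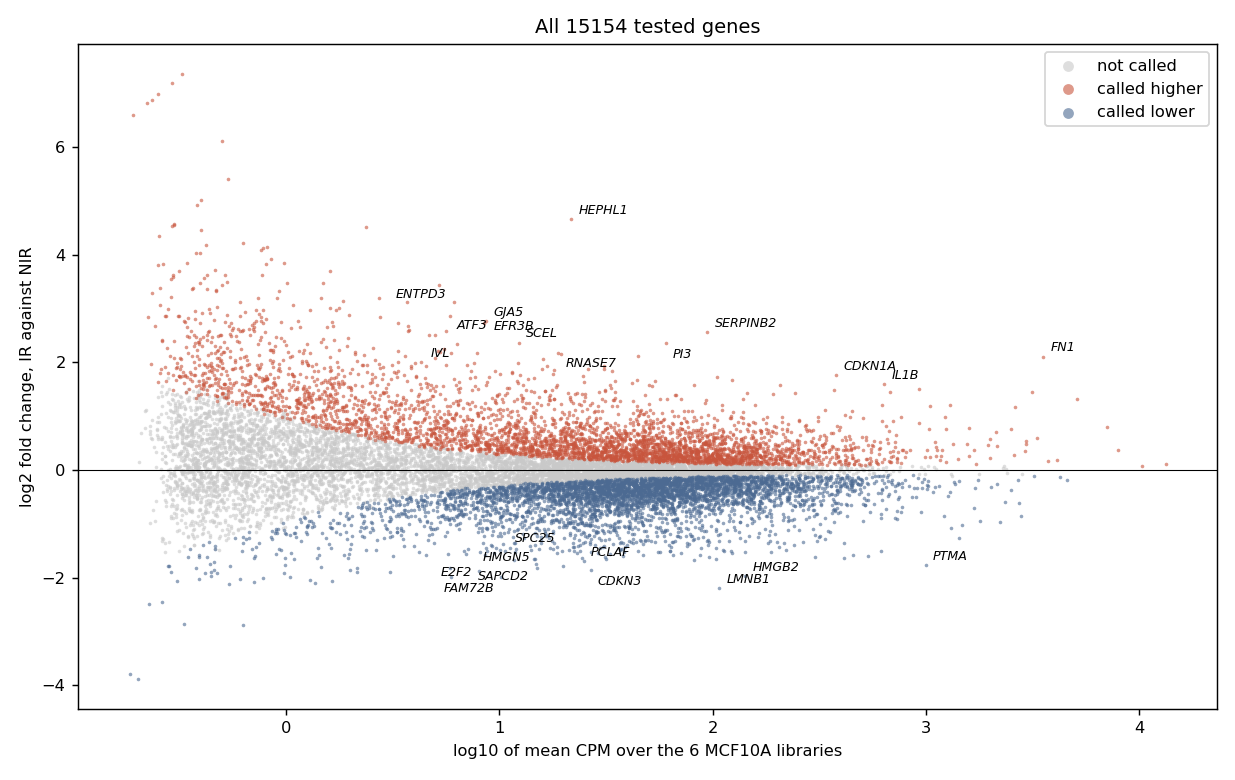
Log2 fold change (IR against NIR, y axis) of the 15154 tested genes against the log10 of their mean CPM (x axis), coloured by call. Named are the 10 largest called changes in each direction with no overlap of libraries and at least 10 CPM in the higher group, plus FN1, CDKN1A and IL1B; HEPHL1 stands highest among the named genes at 4.66 and LMNB1 lowest at -2.19.

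The largest called changes are described first, 10 in each direction, among genes whose higher group averaged 10 CPM or more and whose libraries did not overlap. SERPINB2, an inhibitor of plasminogen activators, rose from 30.6, 25.5 and 25.0 CPM to 163, 152 and 172 CPM (log2 fold change 2.56, SE 0.066, adjusted p 7.3e-22). PI3, the elastase inhibitor elafin, rose from 16.9, 20.5 and 21.0 CPM to 99.2, 105 and 99.4 CPM (2.36, SE 0.072, adjusted p 2.0e-20). RNASE7, an antimicrobial ribonuclease of skin and other epithelia, rose by 2.18, and the envelope proteins SCEL and IVL by 2.36 and 2.33. The other genes were HEPHL1, a copper-dependent ferroxidase, ENTPD3, an ectonucleotidase, the stress factor ATF3, the gap junction protein GJA5 (2.76) and EFR3B (2.73), which helps to place a lipid kinase at the plasma membrane. Every one of these genes was higher in each IR library than in any NIR library, which the rule asks for.

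Of the 10 genes that fell furthest, PTMA, which binds histones and is abundant in dividing cells, fell from 1614, 1596 and 1393 CPM to 526, 462 and 388 CPM (-1.76, SE 0.067, adjusted p 1.7e-18). The nucleosome binder HMGN5 was at -1.83, and the E2F family member E2F2 at -1.87. The CDK phosphatase CDKN3 was at -1.86, the kinetochore protein SPC25 at -1.78, the spindle orientation protein SAPCD2 at -1.75 and the PCNA-associated PCLAF at -1.70. FAM72B (-2.00) has close paralogs, so its reads can be split among them.

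The p53 pathway was read in 2 lists, of which the first holds targets that act in arrest, repair and feedback. Of its 24 members, all tested, 16 were called higher, 2 lower and 6 were not called, with a median log2 fold change of 0.57. CDKN1A (chr6:36676463-36687332, GRCh38.p14) was at 178, 177 and 159.8 CPM in the NIR and at 567, 585 and 619 CPM in the IR libraries (1.76, SE 0.047, adjusted p 1.1e-21). MDM2, the ubiquitin ligase that degrades p53, was at 295, 273 and 309 CPM without and 589, 589.8 and 581 CPM with irradiation (0.98, SE 0.042, adjusted p 2.9e-17). The IR libraries lay above the NIR libraries for both genes, and for MDM2 they were almost level with each other. GDF15, a secreted stress cytokine, rose by 1.88, TP53INP1, a p53 cofactor, by 1.66 and the lipid transporter ABCA12 by 1.72. SESN2, which restrains mTORC1, rose by 0.86, the ribonucleotide reductase subunit RRM2B by 0.61 and the splicing regulator ZMAT3 by 0.73 (the last pair, like other names outside the rule, chosen after their values were seen). The nucleotide excision repair genes DDB2 and XPC were not called, at 0.00 and 0.07, nor was the phosphatase PPM1D, at -0.02. CCNG1 and CMBL, also p53 targets, fell by 0.34 and 0.61.

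The second list holds p53 targets that act in cell death. Of 13 tested members 10 were called higher and none lower, with a median of 0.36, and no member reached a 2-fold change. TP53I3 was at 37.2 ± 3.15 CPM in the NIR and 72.9 ± 2.87 CPM in the IR group (SD, n = 3; log2 fold change 0.95, SE 0.067, adjusted p 1.3e-12). The BH3-only protein PMAIP1 (NOXA) rose by 0.95, the receptors EDA2R and TNFRSF10D by 0.88 and 0.67 and the desmosomal PERP by 0.61. FAS rose by 0.28. BAX was called at 0.16 (adjusted p 0.047), near the threshold, and was not followed under other settings. BBC3 (PUMA) was called at 0.47 (adjusted p 0.028), but not without NIR replicate 1 (adjusted p 0.093), IR replicate 2 (0.082) or IR replicate 3 (0.13).

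**Figure D2:**
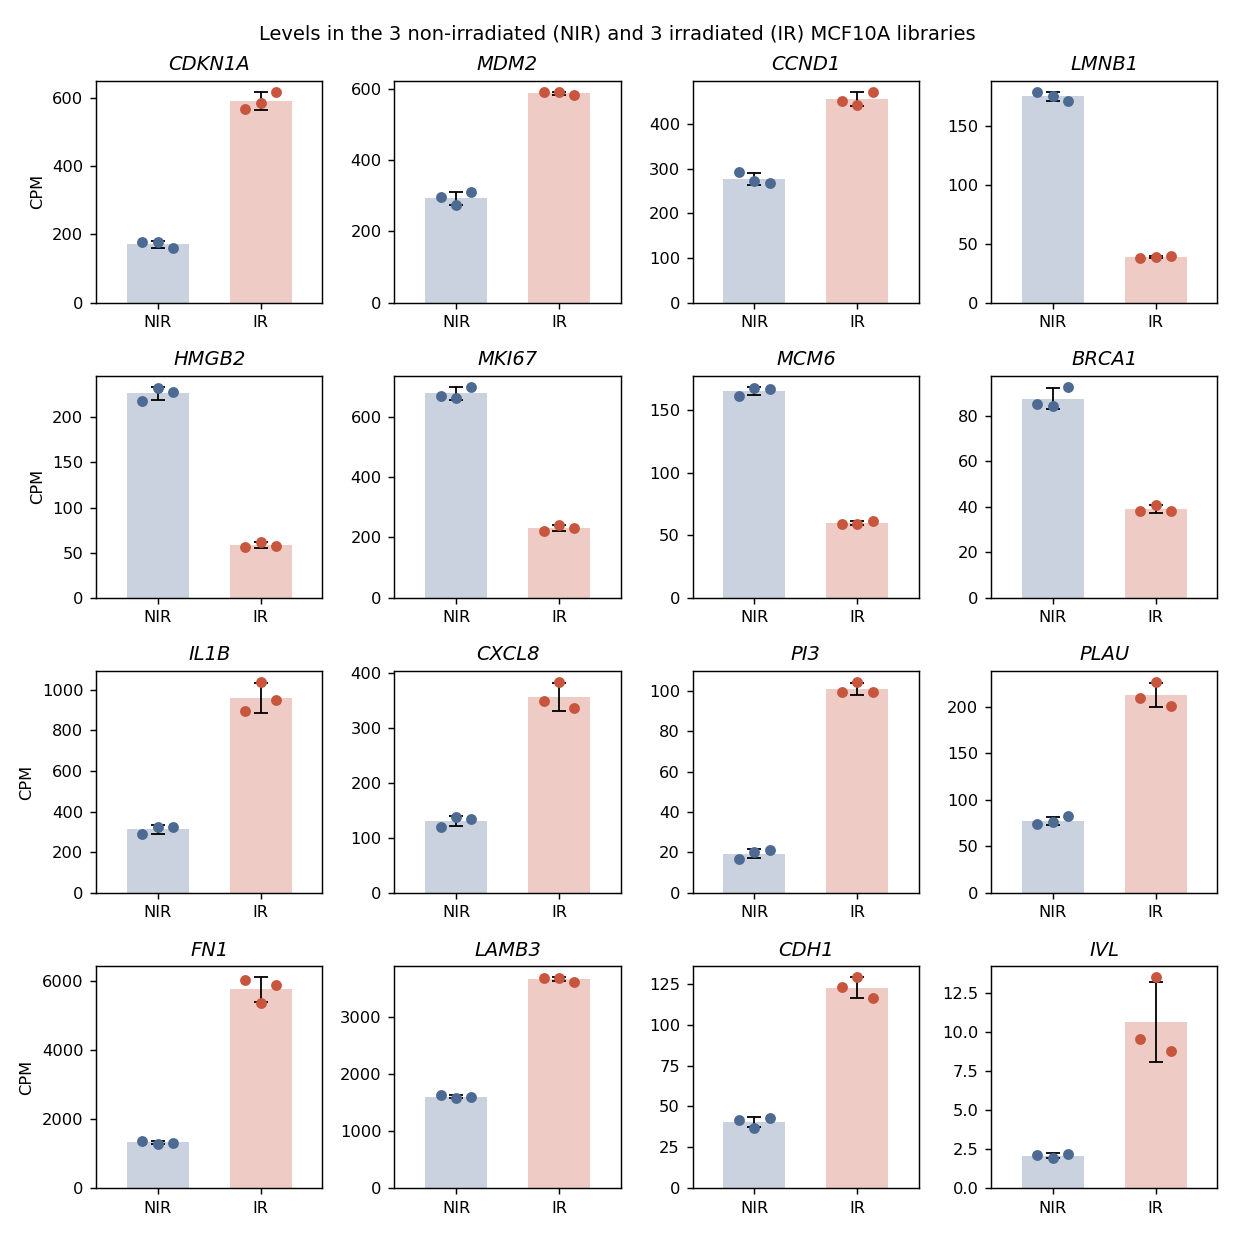
Level in CPM (y axes, from 0) of 16 genes in the NIR and IR groups; points are libraries, bars the means and error bars the SD (n = 3). LMNB1, HMGB2, MKI67, MCM6 and BRCA1 are lower and the other 11 genes higher in IR, with no overlap of libraries in any panel.

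Inhibitors of cyclin-dependent kinases did not move together. Besides CDKN1A, 3 of the 5 testable inhibitors were called lower. CDKN2C (p18) was at 12.9 ± 2.78 CPM in the NIR and 4.64 ± 0.498 CPM in the IR group (-1.50, SE 0.155, adjusted p 3.0e-09), CDKN1B (p27) was at -0.64 and CDKN1C (p57) at -0.72. CDKN2A, which encodes p16, and its neighbour CDKN2B had no counts in any of the 6 libraries. They were at 17.1 and 12.8 CPM in non-irradiated HCT116, so the tables do count these genes.

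Most cyclins and their kinases fell. Of 18 members, 14 were called lower and 3 higher, with a median of -1.01. CCNA2, the cyclin of S phase and mitotic entry, was at 157 ± 4.60 CPM in the NIR and 50.4 ± 3.60 CPM in the IR group (-1.66, SE 0.055, adjusted p 1.1e-19). CCNB2, CCNB1 and CDK1, which drive mitosis, were at -1.53, -1.33 and -1.31. CCND1 (cyclin D1), which acts in G1, was 1 of the 3 members that rose, and was at 293, 272 and 269 CPM in the NIR and 451, 443 and 473 CPM in the IR libraries (0.69, SE 0.042, adjusted p 6.0e-14). CCND2 rose by 1.28 and CDK6 by 0.24. Other genes of G1 and of entry into S phase were lower: CDK4, which partners the D cyclins, was at -0.97, the E cyclins CCNE1 and CCNE2 at -0.32 and -1.14, their kinase CDK2 at -0.63 and the phosphatase CDC25A at -1.05. CCND3 was not called, at -0.09 (adjusted p 0.15).

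Of 19 regulators of the E2F, RB and DREAM system 15 were called lower and none higher, with a median of -0.56. The activator E2F1 fell from 26.0 ± 0.770 to 10.3 ± 0.411 CPM (-1.35, SE 0.096, adjusted p 1.5e-12). E2F8, an atypical repressor that is itself an E2F target, was at -2.00, MYBL2, the partner of DREAM's core in activating mitotic genes, at -1.54 and the mitotic activator FOXM1 at -1.30. Among the pocket proteins RBL1 fell by 0.88, and RBL2 was not called, at -0.12 (adjusted p 0.072). RB1 was called lower at -0.14 (adjusted p 0.015), a small change that was not followed under other settings.

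All 40 genes of the mitosis, spindle and kinetochore list were called lower, 38 of them by at least 2-fold, with a median of -1.36. MKI67, the antigen read as Ki-67, was at 669.7, 662 and 699.7 CPM in the NIR and 222, 240.1 and 231 CPM in the IR libraries. Libraries of the same group lay within a narrow band, and the groups were far apart. The kinase AURKB of the chromosomal passenger complex was at -1.66, separase (ESPL1) at -1.51, the activator CDC20 of the anaphase-promoting complex at -1.51 and the kinase PLK1 at -1.38. AURKA (-0.96) and the checkpoint protein BUB3 (-0.31) were the only members short of 2-fold.

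Mitotic genes repressed by DREAM are known for a cell cycle homology region (CHR, searched as TTTGAA) close to a CCAAT box (CCAAT). The stretches below are the 120 bases before the annotated start of 3 members that hold both (RefSeq, GRCh38.p14, strand of the gene, 5′ to 3′). They are printed so that the matches can be seen, and the number, order and spacing of the matches differ between them. Capitals mark matches to either motif on either strand. In MKI67 a CHR and a CCAAT box on the opposite strand share a base.
MKI67, chr10:128126424-128126543, minus strand: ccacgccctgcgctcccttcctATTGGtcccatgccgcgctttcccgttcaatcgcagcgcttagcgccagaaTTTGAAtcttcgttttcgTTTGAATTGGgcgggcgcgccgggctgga
ESPL1, chr12:53268179-53268298, plus strand: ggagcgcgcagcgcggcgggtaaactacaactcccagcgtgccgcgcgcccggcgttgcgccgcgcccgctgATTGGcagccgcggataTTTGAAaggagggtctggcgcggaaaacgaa
CDC20, chr1:43358861-43358980, plus strand: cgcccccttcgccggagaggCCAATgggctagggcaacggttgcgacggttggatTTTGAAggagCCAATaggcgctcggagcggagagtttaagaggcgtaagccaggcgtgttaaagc

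Over the 250 bases before the start, TTTGAA on either strand was in 17 of the 34 mitotic promoters at hand (50.0%). It was in 13.6% of all 27305 promoters and in 9.13% of the 11678 promoters of tested genes. CCAAT was in 26 of the 34 (76.5%), in 33.0% of all and in 34.7% of those of tested genes. A match is a description of the letters, not a binding site.

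Genes of DNA replication and nucleotide synthesis fell as uniformly: all 39 were called lower, 29 of them by at least 2-fold, with a median of -1.15. MCM6, a subunit of the replicative helicase, was at 161, 168 and 167 CPM in the NIR and 58.6, 59.3 and 61.4 CPM in the IR libraries (-1.49, SE 0.049, adjusted p 1.0e-19). GINS2 of the same helicase was at -1.55, and the licensing factor CDT1 and its inhibitor GMNN were at -1.43 and -1.57. Of the nucleotide enzymes RRM2 was at -1.09 and TYMS at -1.03. PCNA, the sliding clamp, which is a p53 target as well as an E2F target, fell by 0.93.

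E2F sites were searched as TTTNNCGC. The 120 bases before the start of 3 members are given to show the match, in capitals, on either strand (RefSeq, GRCh38.p14). In MCM6 matches on both strands overlap.
GINS2, chr16:85688955-85689074, minus strand: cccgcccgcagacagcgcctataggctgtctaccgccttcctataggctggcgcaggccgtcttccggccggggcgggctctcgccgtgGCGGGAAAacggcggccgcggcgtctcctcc
MCM6, chr2:135876444-135876563, minus strand: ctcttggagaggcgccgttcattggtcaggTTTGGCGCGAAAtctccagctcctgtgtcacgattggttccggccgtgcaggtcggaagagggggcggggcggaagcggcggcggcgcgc
CDT1, chr16:88803669-88803788, plus strand: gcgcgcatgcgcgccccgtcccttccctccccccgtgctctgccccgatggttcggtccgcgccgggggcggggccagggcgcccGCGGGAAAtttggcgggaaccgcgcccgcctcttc

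The motif was in 14 of 34 replication promoters (41.2%) over 250 bases, in 5.93% of all promoters and in 8.73% of the promoters of tested genes.

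Repair genes were mostly lower as well. Of 31 genes of homologous recombination and the Fanconi pathway 29 were called lower and none higher, 16 of them by at least 2-fold, with a median of -1.05. BRCA1 (chr17:43044295-43170327) was at 85.3, 84.3 and 92.8 CPM in the NIR and 38.1, 40.8 and 38.0 CPM in the IR libraries (-1.19, SE 0.061, adjusted p 1.3e-15). BRCA2 was at -1.31, the helicase BLM at -1.64 and the nuclease EXO1 at -1.58. RAD50 and RAD51B were not called, at -0.27 (adjusted p 0.075) and -0.32 (adjusted p 0.079). Nonhomologous end joining, which rejoins broken ends in any phase, was mixed: 8 of 13 genes were called lower and 3 higher, with a median of -0.50 and no 2-fold change. The ligase cofactor XRCC4 was at -0.89, the Ku subunits XRCC5 and XRCC6 at -0.65 and -0.64 and the kinase PRKDC at -0.50. The polymerase POLM rose by 0.39, TP53BP1, which shields ends from resection, by 0.33 and the ligase LIG4 by 0.21. Whether the medians of these lists differ was not tested.

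Of 12 genes of the nuclear lamina and the high-mobility-group proteins 10 were called lower and none higher, 5 by at least 2-fold, with a median of -0.79. LMNB1 (lamin B1, chr5:126776623-126837020) was at 179, 176 and 171 CPM in the NIR and 37.8, 39.1 and 39.8 CPM in the IR libraries (-2.19, SE 0.051, adjusted p 1.8e-22). Its libraries were tight within each group and far apart between them. HMGB2, a DNA-bending chromatin protein, was at 219, 233 and 228 CPM without and 56.0, 61.9 and 57.7 CPM with irradiation (-1.98, SE 0.0515, adjusted p 7.5e-22). Its relative HMGB1 fell by 1.50, TMPO, a lamina-associated protein, by 1.43, the lamin B receptor LBR by 1.39 and LMNB2 by 0.88. Lamin A/C (LMNA) fell by 0.21. HMGA2, a component of the chromatin foci of senescent fibroblasts, was not called, at -0.08 (adjusted p 0.12).

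Of 21 genes of Polycomb and DNA methylation 14 were called lower and 2 higher, with a median of -0.41. EZH2, the histone H3 lysine methyltransferase of Polycomb, fell from 68.8 ± 2.55 to 28.0 ± 2.35 CPM (-1.32, SE 0.0695, adjusted p 2.4e-15). UHRF1, which recruits DNMT1 to newly made DNA, was at -1.32 and DNMT1 at -0.86. CBX7, a Polycomb reader, was called higher at 0.50 (adjusted p 0.022) with overlapping libraries, and this call was lost without IR replicate 1 (adjusted p 0.14), IR replicate 3 (0.062), NIR replicate 2 (0.063) or NIR replicate 3 (0.075).

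The clustered histone genes are made in S phase, and their usual transcripts carry no poly(A) tail. Of 69 in the tables only 26 had enough counts to test. Of these 15 were called higher and 1 lower, with a median of 1.43, which was 0.41 with no filter on low counts. The gene called lower was H2AC20, from 0.971 ± 0.823 to 0.248 ± 0.290 CPM with overlapping libraries. None was called lower without IR replicate 1, IR replicate 3 or NIR replicate 2, with counts halved or with a mean of at least 1 CPM. H2AC6 was at 6.94, 6.37 and 4.95 CPM in the NIR and 27.5, 25.0 and 25.2 CPM in the IR libraries (2.06, SE 0.117, adjusted p 1.1e-14). H1-2 rose by 1.84 and H2BC12 by 1.47. H2BC11 was not called (0.11, adjusted p 0.069): its libraries overlapped, at 242, 246 and 269 CPM against 260.4, 268 and 299.5 CPM. Histone genes are near-identical copies, so their reads can be split among them.

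**Figure D3:**
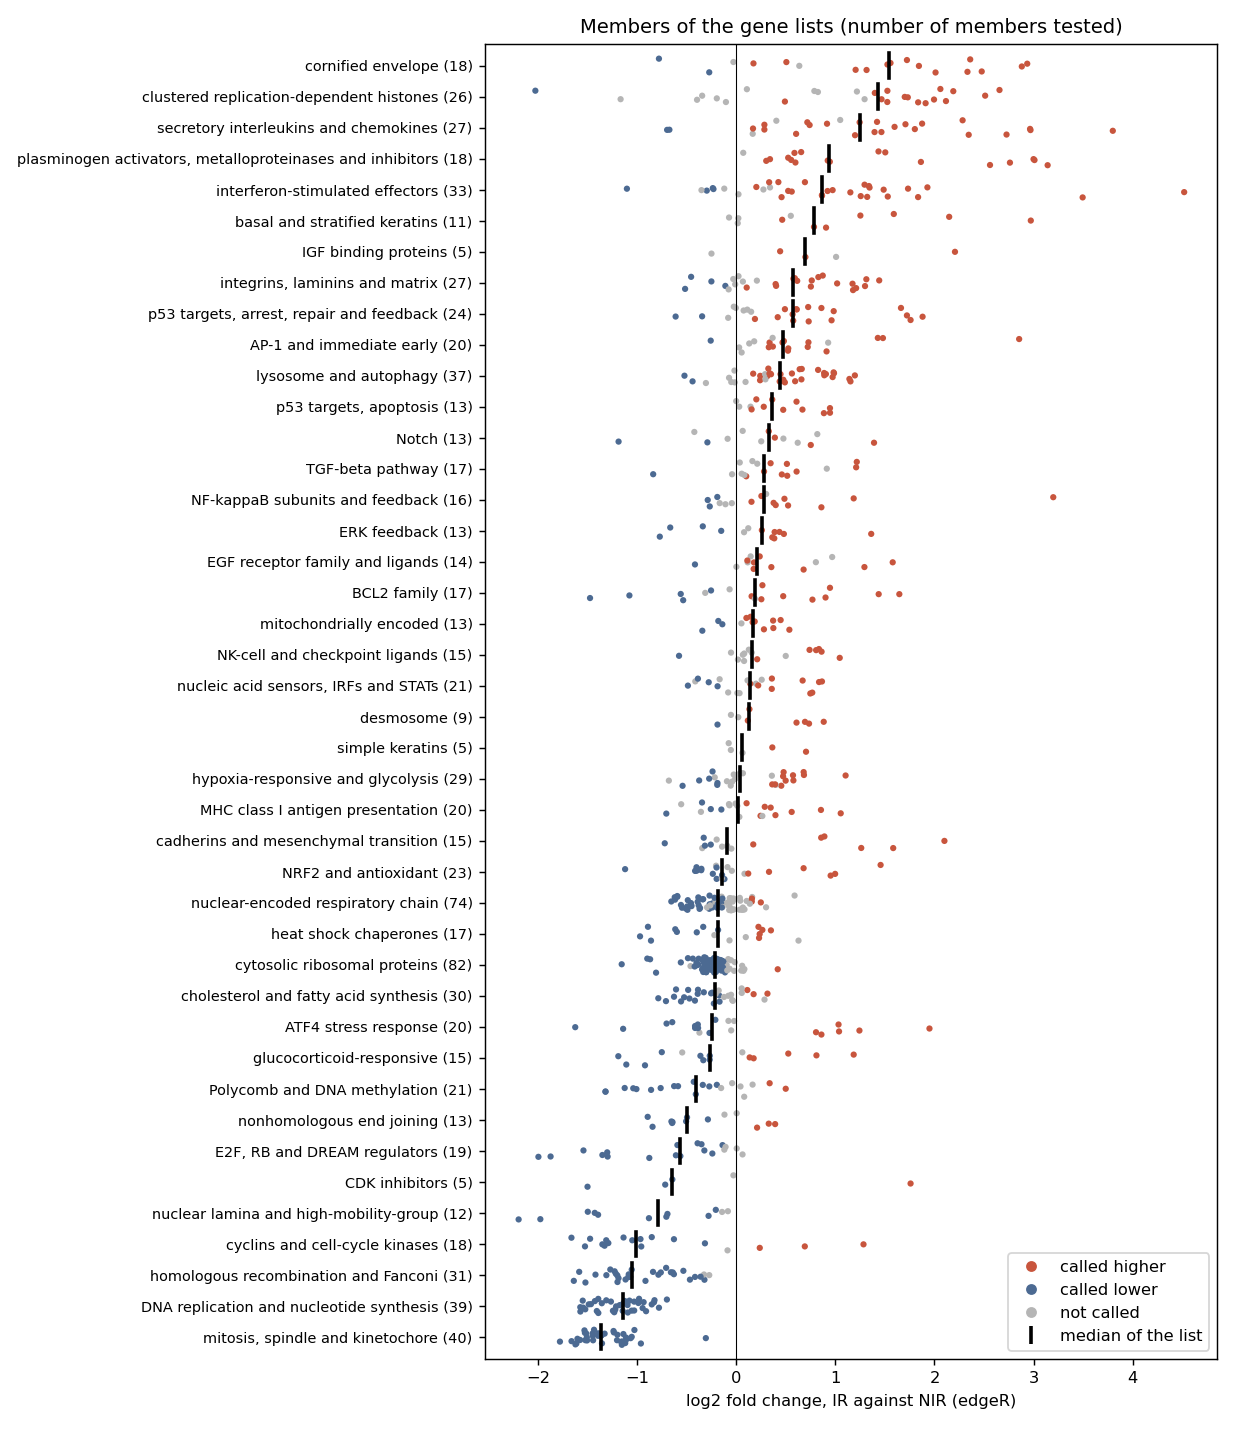
Log2 fold change (x axis, IR against NIR) of each tested member of the lists with at least 5 members tested (rows, ordered by median); points are genes coloured by call and black ticks list medians. The median is highest for the cornified envelope (1.54, with 18 of 36 members tested) and lowest for mitosis (-1.36). The mitosis and replication rows hold called-lower genes only.

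Secreted interleukins and chemokines went the opposite way to the dividing-cell genes. Of 27 tested, 22 were called higher and 2 lower, with a median of 1.25, and 15 rose by at least 2-fold. IL1B (chr2:112829751-112836779), the interleukin-1 beta precursor, was at 288, 324 and 326 CPM in the NIR and 893, 1039 and 949 CPM in the IR libraries (1.60, SE 0.052, adjusted p 7.3e-20). IL1A, an upstream cytokine of the senescence secretome, was at 426 ± 25.6 and 817 ± 5.93 CPM (0.92, SE 0.042, adjusted p 1.5e-16). The neutrophil attractant CXCL8 was at 120.1, 138 and 135 CPM without and 349, 383 and 335 CPM with irradiation (1.42, SE 0.054, adjusted p 1.8e-18). The groups did not overlap for any of these 3 genes. CXCL3, CXCL1 and CXCL2, neighbours of CXCL8 that bind the same receptor, rose by 1.40, 0.74 and 0.72. Of the interleukins, IL24 rose by 1.88, IL32 by 1.80, the alarmin IL33 by 1.47 and LIF, of the IL-6 family, by 1.20.

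IL6 itself, a defining member of the secretome in fibroblasts, was near the limit of the test. It was at 2.21, 2.99 and 2.19 CPM in the NIR and 4.04, 3.54 and 3.85 CPM in the IR libraries, called at 0.60 (adjusted p 0.023). The call was lost without IR replicate 1 (adjusted p 0.072), IR replicate 3 (0.059), NIR replicate 1 (0.073) or NIR replicate 3 (0.071), and in the fit over all 18 libraries (0.28). CSF1, the macrophage growth factor, fell by 0.67. IL7 was called lower at -0.70 (adjusted p 0.046) with overlapping libraries. Of the 2 members called lower, 1 was so without IR replicate 2, IR replicate 3, NIR replicate 1 or NIR replicate 2, with every other scaling tried, with DESeq2, in the fit over 18 libraries or with a mean of at least 1 CPM.

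Of 20 proteases and inhibitors that shape the matrix 18 had enough counts to test. Of these 17 were called higher and none lower, with a median of 0.93. Members almost absent from the NIR group, such as MMP10 (0.176 CPM), could be tested only through their IR counts, which favours a call of higher. PLAU, the urokinase activator, was at 74.1, 76.3 and 82.0 CPM in the NIR and 209.7, 227 and 201 CPM in the IR libraries (1.44, SE 0.053, adjusted p 9.9e-19). Every IR library was above the NIR libraries. The receptor PLAUR rose by 0.52 and the tissue activator PLAT by 0.59. Of the metalloproteinases MMP2 rose by 0.94 and its inhibitor TIMP1 by 0.92. The collagenase MMP1, the stromelysin MMP3 and the gelatinase MMP9 had log2 fold changes of 3.00, 3.01 and 3.14 at low levels, with 0.347, 0.395 and 0.364 CPM in the NIR and 2.89, 3.15 and 3.36 CPM in the IR group. Of the insulin-like growth factor binding proteins 3 of 5 were called higher, with IGFBP3 (2.21), a p53 target, going from 1.81 ± 0.466 to 8.54 ± 1.64 CPM.

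In the TGF-beta list 9 of 17 were called higher and 1 lower, with a median of 0.28. The activin subunit INHBA rose from 94.2 ± 2.61 to 221 ± 19.2 CPM (1.21, SE 0.053, adjusted p 5.3e-17) and BMP2 by 1.22. TGFB1 and TGFB2 were not called, at 0.04 and 0.06, and the co-receptor TGFBR3 fell by 0.84. Of 16 NF-kappaB genes 9 were called higher and 3 lower, with a median of 0.28. ICAM1, an adhesion molecule and target, rose from 21.6 ± 1.30 to 49.9 ± 1.88 CPM (1.19, SE 0.075, adjusted p 1.2e-13), and TNFAIP3, which switches the pathway off, by 0.86. The subunit NFKB1 and the inhibitor NFKBIA fell by 0.29 and 0.27.

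Of 9 interferon genes only IFNE, the epithelial interferon epsilon, had enough counts to be tested. It was at 0.735, 0.366 and 0.444 CPM in the NIR and 2.54, 2.59 and 2.56 CPM in the IR libraries (2.28, SE 0.356, adjusted p 3.5e-06). Of 21 nucleic acid sensors, interferon regulatory factors and STATs 9 were called higher and 4 lower, with a median of 0.14. STAT2, part of the interferon-activated factor, rose from 38.4 ± 4.43 to 71.0 ± 3.36 CPM (0.87, SE 0.070, adjusted p 2.3e-11), IRF7 by 0.75 and STING1 by 0.36. The DNA sensor IFI16 and the RNA-activated kinase EIF2AK2 fell by 0.49 and 0.39. CGAS, which makes the signal that STING1 reads, was not called, at -0.08 (adjusted p 0.41).

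Of 35 interferon-stimulated effectors 33 had enough counts to test. Of these 24 were called higher and 4 lower, 13 of the former by at least 2-fold, with a median of 0.86. Members almost absent from the NIR group, such as RSAD2 (0.0839 CPM) and IFI27 (0.190 CPM), could be tested only through their IR counts, which favours a call of higher. Levels of the genes with large changes were low. IFIT1, which binds foreign RNA caps, was at 0.882, 2.23 and 1.64 CPM in the NIR and 7.13, 4.05 and 7.23 CPM in the IR libraries (1.93, SE 0.267, adjusted p 5.3e-07). ISG15, a ubiquitin-like modifier, was at 1.65, 1.18 and 1.54 CPM against 4.78, 5.54 and 5.47 CPM (1.84, SE 0.225, adjusted p 6.6e-08). The groups overlapped for neither gene, and IR replicate 2 was the lowest of the IR libraries for IFIT1. IFI6 rose by 1.53 and IFI44L by 1.35. IFI27 went from 0.190 ± 0.0837 to 4.56 ± 0.380 CPM (4.52). MX1, at 0.705 ± 0.367 and 1.81 ± 0.795 CPM, was called (1.34, adjusted p 0.010), but not without IR replicate 2 (adjusted p 0.11) or NIR replicate 2 (0.057). The members called lower were IFITM1 (-1.10), IFIT5 (-0.30), IFITM3 (-0.24) and OAS3 (-0.23). OAS3 was not called with upper-quartile normalization (adjusted p 0.059).

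The interferon-stimulated response element was searched as GAAA, 2 bases of any kind and GAAA. The 120 bases before the start of 3 of these genes are shown because each holds a pair of matches, on either strand, in capitals (RefSeq, GRCh38.p14). In ISG15 the matches overlap.
IFIT1, chr10:89392503-89392622, plus strand: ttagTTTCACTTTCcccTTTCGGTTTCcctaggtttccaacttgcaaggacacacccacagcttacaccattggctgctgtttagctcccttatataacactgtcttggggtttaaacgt
ISG15, chr1:1013377-1013496, plus strand: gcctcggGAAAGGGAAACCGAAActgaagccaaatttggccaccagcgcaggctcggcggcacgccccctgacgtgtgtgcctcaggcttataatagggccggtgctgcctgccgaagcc
IFI6, chr1:27672193-27672312, minus strand: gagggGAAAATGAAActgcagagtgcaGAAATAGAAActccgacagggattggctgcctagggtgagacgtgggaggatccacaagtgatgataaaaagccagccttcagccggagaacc

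Over 250 bases the element was in 16 of 28 promoters of the list (57.1%), in 3.07% of all promoters and in 2.55% of those of tested genes. It was held by 11 of 20 members called higher and by all 4 called lower, so the letters did not separate members by direction.

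Of 20 genes of MHC class I presentation 8 were called higher and 4 lower, with a median of 0.02, a share of called genes near that of all tested genes (55.4%). With upper-quartile normalization 2 were called lower. HLA-B was at 32.0, 35.2 and 34.0 CPM in the NIR and 66.7, 73.7 and 72.9 CPM in the IR libraries (1.05, SE 0.066, adjusted p 9.9e-14). HLA-F and HLA-C rose by 0.86 and 0.35. HLA genes are close relatives, so reads can be split among them. The peptide pump TAP1 rose by 0.56, while NLRC5, the class I transactivator, fell by 0.70. B2M, the light chain, was called at 0.10 (adjusted p 0.037), and with single libraries omitted its adjusted p was 0.054 to 0.16 in 5 of 6 cases. Of 15 ligands of natural killer cells and of checkpoint receptors 6 were called higher and 1 lower. PDCD1LG2 (PD-L2), VSIR (VISTA), ULBP2, a ligand of NKG2D, and CD274 (PD-L1) rose by 1.04, 0.86, 0.83 and 0.74. The NKp30 ligand NCR3LG1 fell by 0.58.

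**Figure D4:**
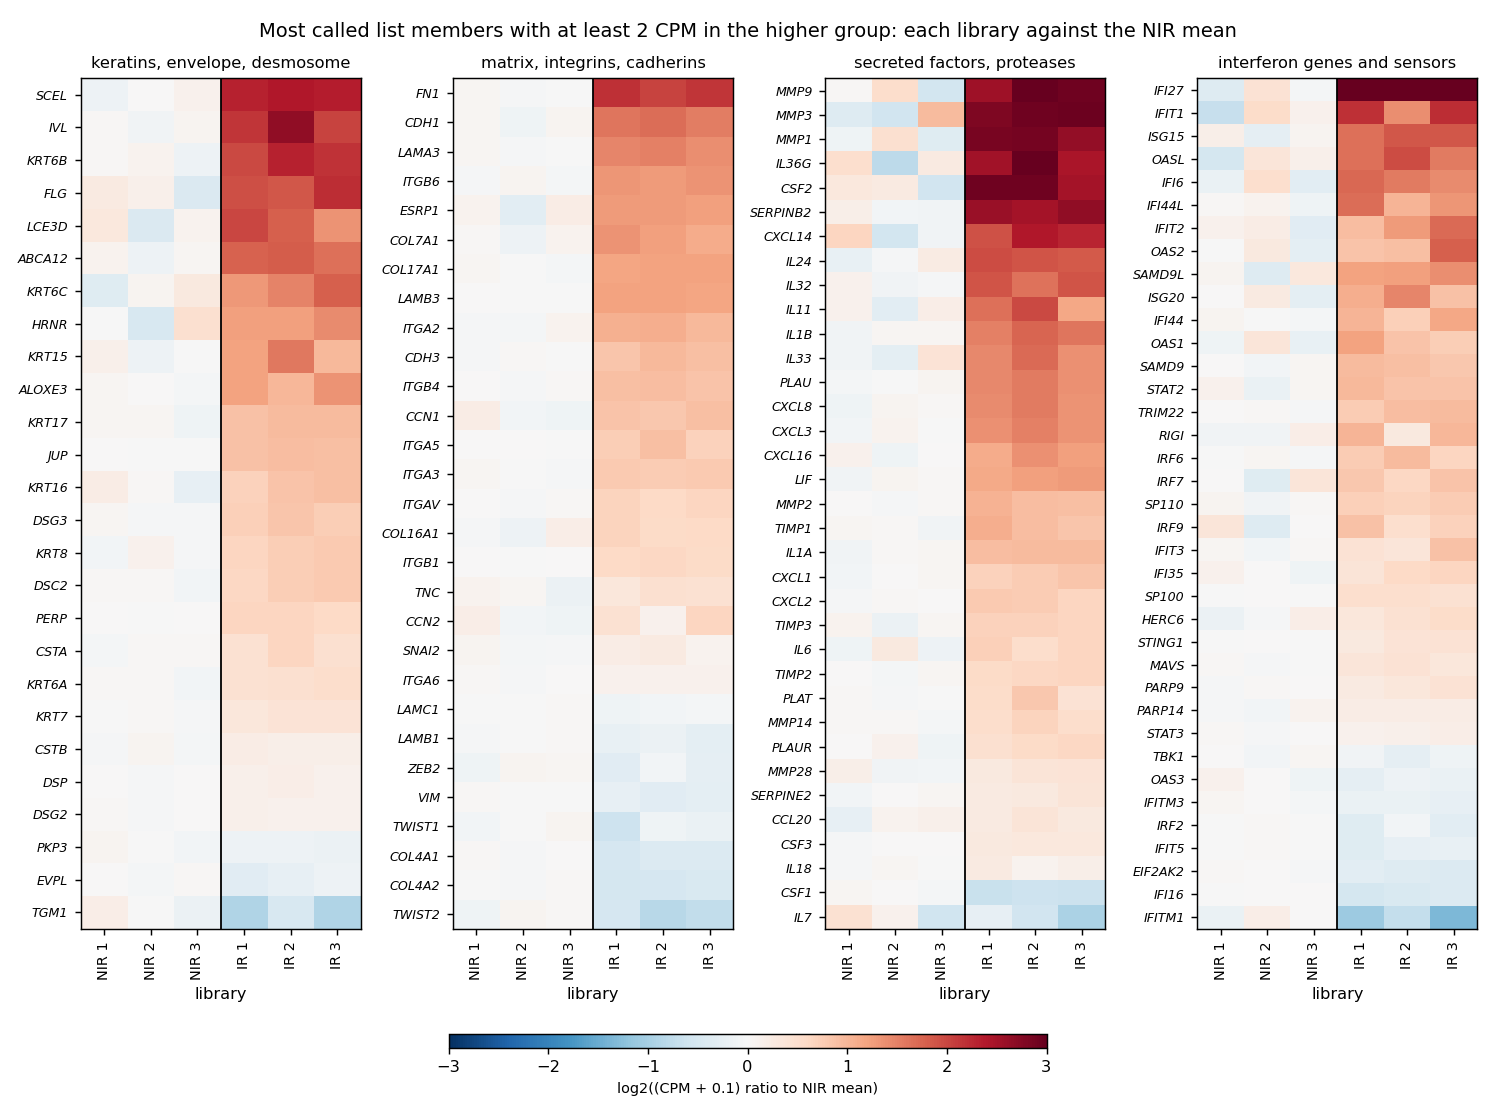
Heat maps of most called list members with at least 2 CPM in the higher group, in 4 panels; columns are the 6 libraries, rows genes ordered by fold change, and colour the log2 ratio of CPM + 0.1 to the NIR mean (red higher, blue lower, limits -3 and 3). The 3 IR columns of most genes look alike, while for IFIT1, at 7.13, 4.05 and 7.23 CPM, and for other interferon genes of low level the shade varies between libraries.

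Most tested keratins of stratified epithelium rose, but not the basal pair KRT5 and KRT14, nor KRT10 and KRT9. Of 18 in the tables only 11 had enough counts to test. Of these 7 were called higher and none lower, with a median of 0.78. KRT75, at 0.173 CPM in the NIR group, could be tested only through its IR counts, which favours a call of higher. KRT6B, a keratin of wounded and hyperproliferating epithelium, was at 7.29, 7.66 and 6.35 CPM in the NIR and 28.3, 35.7 and 32.2 CPM in the IR libraries (2.15, SE 0.110, adjusted p 1.2e-15). Its close relative KRT6A rose by 0.46, KRT15 by 1.25, KRT17 by 0.91 and KRT16 by 0.78. KRT14 was not called, at 0.02, and its partner KRT5 was not called, at -0.07 (adjusted p 0.099). KRT5 was called lower without IR replicate 2 (-0.10, adjusted p 0.040), without NIR replicate 3 (-0.11, 0.014), with no filter (-0.09, 0.015) and with a replicate block (-0.08, 0.018), and stood at 0.01 with upper-quartile normalization (adjusted p 0.79). Of the 5 tested keratins of simple epithelium KRT8 rose by 0.70 and KRT7 by 0.36, and KRT18, the partner of KRT8, was not called, at 0.06.

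Genes of the cornified envelope, the cross-linked shell of keratinizing cells, had the highest median of the lists with at least 5 members tested, 1.54. Of 36 in the tables only 18 had enough counts to test, and of these 14 were called higher and 2 lower. Members almost absent from the NIR libraries could be tested only through their IR counts, which can raise this median and its rank. With only genes of at least 1 CPM on average, 9 were called higher. SCEL (sciellin) was at 3.56, 4.03 and 4.37 CPM in the NIR and 20.0, 21.5 and 20.8 CPM in the IR libraries (2.36, SE 0.123, adjusted p 1.9e-15). IVL (involucrin, chr1:152908546-152911886) was at 2.12, 1.92 and 2.19 CPM against 9.55, 13.5 and 8.76 CPM (2.33, SE 0.184, adjusted p 1.3e-11). FLG (filaggrin) rose by 2.01. The groups did not overlap for any of these. TGM1, the transglutaminase that cross-links the shell, went the other way, from 47.2, 40.3 and 36.1 CPM to 21.9, 29.5 and 21.8 CPM (-0.78, SE 0.102, adjusted p 2.1e-07), and envoplakin (EVPL) fell by 0.27. SPRR1B was not called at 0.64 (adjusted p 0.080), and was called without IR replicate 3 (0.88, adjusted p 0.022) and with upper-quartile normalization (0.72, adjusted p 0.048). Of 9 desmosome genes 6 were called higher and 1 lower, with plakoglobin (JUP) at 0.88, the cadherins DSG3 and DSC2 at 0.73 and 0.69 and plakophilin 3 (PKP3) at -0.19, a call lost with upper-quartile normalization (adjusted p 0.11).

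Adhesion to the basement membrane held some of the most counted transcripts of the line. Of 27 integrin, laminin and matrix genes 17 were called higher and 4 lower, with a median of 0.58. LAMB3, a chain of laminin-332, which ties epithelium to its basement membrane, was at 1623, 1575 and 1597 CPM in the NIR and 3677, 3686 and 3617 CPM in the IR libraries (1.17, SE 0.033, adjusted p 2.4e-21). LAMA3, another chain of it, was at 1746, 1637 and 1661 CPM against 4678, 4787 and 4454 CPM (1.44, SE 0.035, adjusted p 4.4e-22). The groups did not overlap for either. Their partners at the hemidesmosome moved the same way: the integrin ITGB4 rose by 0.87, ITGA6 by 0.11, COL17A1 by 1.18 and the anchoring fibril collagen COL7A1 by 1.21. The TGF-beta activating integrin ITGB6 rose by 1.30. The basement membrane collagens COL4A2 and COL4A1, a gene pair read from a shared promoter, fell by 0.52 and 0.45.

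In the list of cadherins and genes of epithelial to mesenchymal transition, FN1 and epithelial markers rose. The mesenchymal genes VIM, TWIST1, TWIST2 and ZEB2 were called lower. FN1 (fibronectin, chr2:215360865-215436068), usually counted as mesenchymal, was at 1369, 1288 and 1317 CPM in the NIR and 6053, 5360 and 5892 CPM in the IR libraries (2.10, SE 0.038, adjusted p 4.8e-25). CDH1 (E-cadherin), the defining epithelial cadherin, was at 41.8, 36.9 and 42.7 CPM against 123, 129 and 116 CPM (1.58, SE 0.060, adjusted p 1.9e-18). Each IR library was above every NIR library for both. The epithelial splicing factor ESRP1 rose by 1.26 and CDH3 (P-cadherin) by 0.89. VIM (vimentin) fell by 0.32 and TWIST2 by 0.72. CDH2 (N-cadherin) and ZEB1 were not called, at -0.09 and -0.05. Over the whole list of 15, 6 were called higher and 4 lower, and the median was -0.09. The transcription factors TWIST1 and ZEB2, at -0.33 and -0.26, were among the 4, and 2 were called lower without IR replicate 1, NIR replicate 2 or NIR replicate 3, with upper-quartile normalization, with DESeq2, in the fit over 18 libraries or with a mean of at least 1 CPM. In the fibroblast, endothelial and leukocyte list of 13 markers 6 were tested and 2 called higher: DCN (decorin, 0.99), from 119 ± 6.67 to 240.2 ± 8.69 CPM, and COL1A1 (1.11), from 6.52 ± 0.740 to 14.3 ± 2.83 CPM. The list summed to 126 to 138 CPM in the NIR and 252 to 266 CPM in the IR libraries, and the leukocyte marker PTPRC had 12 counts over the 6 libraries. The part of such cells in the results was not tested.

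Several ligands of the EGF receptor family rose. Of 14 EGF receptor family members and ligands 8 were called higher and 1 lower, with a median of 0.21. HBEGF was at 25.5, 26.7 and 22.4 CPM in the NIR and 71.2, 81.8 and 73.9 CPM in the IR libraries (1.58, SE 0.074, adjusted p 2.2e-16). NRG1, the ligand of ERBB3 and ERBB4, rose by 1.29, TGFA by 0.68 and the receptor EGFR by 0.24, while the ligand EPGN fell by 0.42. Of 13 feedback genes of the ERK pathway 7 were called higher and 4 lower. The inhibitor SPRED3 rose by 1.36 and the phosphatase DUSP6 by 0.26, and the transcription factor ETV4 fell by 0.77. Of 13 Notch genes 4 were called higher, a share near that of all tested genes (30.8% against 26.2%). Called lower were 2 (15.4% against 29.2%). The 2 were NRARP (-1.19) and HES1 (-0.29), and the number was 0 without NIR replicate 1 and 1 without IR replicate 3, with upper-quartile normalization or in the fit over 18 libraries. HES2, a relative of HES1, rose from 36.7 ± 0.733 to 97.8 ± 2.21 CPM (1.39, SE 0.057, adjusted p 9.4e-18), the ligand JAG1 by 0.75 and the receptor NOTCH1 by 0.39.

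Of 20 AP-1 and immediate early genes 13 were called higher and 1 lower, with a median of 0.47. ATF3 was at 1.21, 1.63 and 1.37 CPM in the NIR and 9.70, 9.89 and 11.4 CPM in the IR libraries (2.85, SE 0.183, adjusted p 1.6e-13). FOSB rose by 1.48, JUN by 0.73 and KLF6 by 0.72, FOS was not called, at 0.18 (adjusted p 0.089), and MYC fell by 0.26. The ATF4 stress list was split, with 6 of 20 called higher, 10 lower and a median of -0.24. PHGDH, the first enzyme of serine synthesis, fell from 47.2, 47.4 and 46.4 CPM to 16.6, 15.5 and 14.4 CPM (-1.62, SE 0.080, adjusted p 5.2e-16) and DDIT4, an mTORC1 inhibitor, by 1.14. PPP1R15A (GADD34), which restarts translation, rose by 1.03, and DDIT3 (CHOP) by 1.24.

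Ribosomal protein genes were mostly lower, by small steps. Of 82 cytosolic ribosomal protein genes 67 were called lower and 1 higher, with a median of -0.21. With upper-quartile normalization 44 were called lower and 5 higher, and without NIR replicate 2 the number called higher was 5 too. The member called higher was RPS27L, a p53 target that is also in the first p53 list (0.42). Of 74 nuclear-encoded respiratory chain genes 37 were called lower and 3 higher, with a median of -0.18, and the number called higher was 8 with upper-quartile normalization, 6 without NIR replicate 2, and 0 without IR replicate 2, without NIR replicate 1 or in the fit over 18 libraries. Of the 13 mitochondrially encoded genes 9 were called higher and 3 lower, with a median of 0.17. In cholesterol and fatty acid synthesis 17 of 30 were called lower and 3 higher, with a median of -0.22, and with upper-quartile normalization 5 were called higher. INSIG1, the sterol-sensing brake, was at -0.79 and HMGCS1 at -0.63.

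Lysosome and autophagy genes were mostly higher, 27 of 37 called higher and 2 lower, with a median of 0.44. CTSB (cathepsin B) was at 765, 793 and 779 CPM in the NIR and 1766, 1857 and 1817 CPM in the IR libraries (1.20, SE 0.037, adjusted p 2.2e-20). The saposin precursor PSAP, the autophagy receptor SQSTM1 (p62) and the autophagosome protein MAP1LC3B rose by 0.99, 0.98 and 0.97. GLB1, the lysosomal beta-galactosidase stained in senescent cells, rose by 0.17 (adjusted p 0.024).

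Several stress lists held more genes called lower than higher. All 4 testable metallothioneins were called lower, with a median of -0.82: MT2A fell from 2074 ± 232 to 1296 ± 65.0 CPM (-0.70) and MT1X was at -1.35. These genes are near-identical copies, so their reads can be split. Of 17 heat shock chaperones 8 were called lower and 5 higher, with HSP90AA1 falling from 2931 ± 28.2 to 1519 ± 41.8 CPM (-0.97, SE 0.034, adjusted p 2.7e-19) and HSPD1, the mitochondrial chaperonin, by 0.86. The list median was -0.18 and turned to 0.02 without NIR replicate 2. Of 23 NRF2 and antioxidant genes 12 were called lower and 6 higher. Hydrocortisone was in the medium of all 6 cultures, and of 15 glucocorticoid-responsive genes 8 were called lower and 5 higher. FKBP5, a co-chaperone of the receptor, fell by 0.92 and CAVIN2 by 1.19, while the kinase SGK1 rose by 1.19 and ANGPTL4 by 0.81. Without IR replicate 2, 3 of these were called higher.

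The BCL2 family changed on both sides of the balance of cell death. Of 17 members 9 were called higher and 5 lower, and without NIR replicate 1, IR replicate 2 or IR replicate 3, and with DESeq2, the number called higher was 5 each time. BCL2 was at 11.7, 9.30 and 10.4 CPM in the NIR and 2.94, 4.23 and 4.23 CPM in the IR libraries (-1.47, SE 0.160, adjusted p 7.6e-09). BCL2L1 (BCL-XL), which also protects cells, was at 83.3, 81.8 and 77.6 CPM against 136, 142 and 142 CPM (0.77, SE 0.049, adjusted p 1.6e-13). The groups did not overlap for either protector, which moved in opposite directions. The killer BCL2L11 (BIM) fell by 0.53.

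HCT116 served to ask where this response differed from that of another irradiated line. The interaction of line and treatment was called for 37.3% of 18179 genes (15.4% with a higher response in HCT116, 21.9% with a lower one). The split of called genes moved from 41.3% higher to 51.9% with no filter to between 52.8% and 53.9% without any 1 of the MCF10A IR libraries and to 53.2% without HCT116 IR replicate 2. The interaction was read for 24 genes, the 20 furthest movers of MCF10A and 4 chosen after their values were seen, and was called for 16 of them. All 4 of the latter are among the 16. The 20 were picked by their MCF10A change, which enters the difference, so the choice favours a larger change in MCF10A than in HCT116. The number called therefore describes this choice and not all genes. FN1 rose in MCF10A by 2.10 and fell in HCT116 by 0.81, from 74.8 to 42.3 CPM (difference -2.99, SE 0.135, adjusted p 2.0e-14). CTSB and CXCL8 were called higher in MCF10A and were not called in HCT116, at -0.04 and 0.16. CDH1 was called higher in both, by 1.58 in MCF10A and 0.49 in HCT116. Of the genes that fell, LMNB1 fell by 2.19 in MCF10A and by 1.48 in HCT116. HMGB2 was at -1.98 in MCF10A and -2.23 in HCT116. The lines were grown in different media, so line and medium cannot be told apart. In the HCT116 libraries, which are labelled p53-null, the targets CDKN1A, MDM2 and TP53I3 rose by 2.33, 1.41 and 2.97, which goes against that label, so no direction is drawn from it here.

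**Figure D5:**
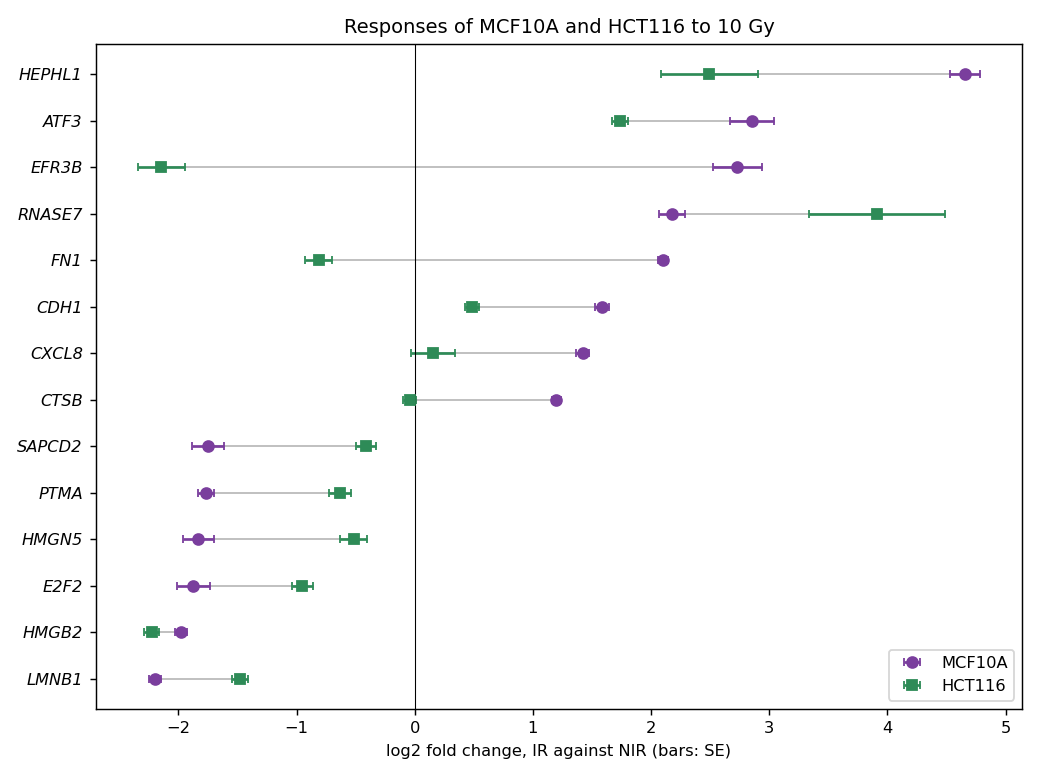
Log2 fold change after 10 Gy (x axis, bars are SE) in MCF10A (circles) and HCT116 (squares) for the 14 genes with a called difference of responses and a fold change fitted in both lines. EFR3B and FN1 lie on opposite sides of 0, and CTSB stays near 0 in HCT116.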

How the data were processed

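Per the submitters' processing notes, the authors used fastp, STAR and featureCounts with GRCh38. Versions, strand setting and annotation are not given in the sources used here. The authors deposited 1 table of raw counts per gene symbol for each library, without normalization. Of low values (1 to 10), 67.8% to 71.2% were even, so mates may have been counted singly, and a fit with counts halved was an alternative.

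From these counts, CPM used the whole library total. Groups (3 libraries each) were compared with edgeR 4.0.16 in R 4.3.3: TMM factors (0.984 to 1.01), filterByExpr, 2-sided quasi-likelihood test, Benjamini-Hochberg adjustment over all tested genes, called under 0.05. SE was derived from the fold change and F. The difference between the lines used the interaction term over 12 libraries. Named genes were the 10 largest changes each way, up to 4 members a list in each direction with at least 5 CPM, and a fixed set. The members and all 45 gene lists were chosen with earlier results of these data known, and no list was tested. On simulated data, recovery was read among changed genes whose estimated fold change had the right sign. Of these, 86% of genes changed by a log2 of 0.5 and 100% of those changed by 1 were called (interaction: 64% and 97%). The runs held 14865 genes (interaction: 17493). Of the calls, 5.58% were false (interaction: 6.94%). Only 200 genes above 5 CPM were changed, raised as often as lowered. The simulation therefore does not cover genes of low counts or a response as wide as the 55.4% of genes called here. For the interaction both lines were given the same starting level, so genes almost absent from 1 line are not covered either. Promoters (250 bases upstream) and gene spans are RefSeq's, GRCh38.p14. Of 15154 tested symbols, 14998 matched a gene and 11678 a promoter.

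Replicates of a group differed by more than counting noise (chi-squared per gene 4.77 to 8.30, and 2.39 to 4.15 with counts halved). Residuals of libraries with the same number correlated between -0.030 and 0.0026, so numbers were not taken to pair libraries. Some list members that the rule names are not reported here, and the counts of each list include them.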

Additional observations from a re-analysis of the deposited data

Results flagged for a closer look

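In 16 genes read across both lines, the response to irradiation differed between HCT116 and MCF10A by the interaction of line and treatment (edgeR quasi-likelihood test, Benjamini-Hochberg adjusted). Differences are the HCT116 minus the MCF10A log2 fold change, and line and medium cannot be told apart. The genes were chosen by the size of their MCF10A change or after their values were seen. That choice favours a larger change in MCF10A, so their number describes the choice and not all genes. The response was lower in HCT116 for FN1 (-2.99, adjusted p 2.0e-14), CTSB (-1.32, 5.3e-14), CXCL8 (-1.32, 2.2e-07) and CDH1 (-1.17, 4.3e-11), the 4 genes chosen after their values were seen. It was also lower for HEPHL1 (-2.25, adjusted p 9.6e-05) and ATF3 (-1.19, adjusted p 1.1e-06), which rose in both lines. EFR3B rose in MCF10A and fell in HCT116 (-4.96, adjusted p 2.2e-11).

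ENTPD3 (-3.25, adjusted p 0.0022) and GJA5 (-5.42, adjusted p 0.027) had almost no counts in HCT116. The call was lost for ENTPD3 without HCT116 NIR replicate 1 (-2.11, adjusted p 0.19). For GJA5 it was lost without that library (-2.83, adjusted p 0.9998) and without HCT116 IR replicate 2 (-5.30, adjusted p 0.055). RNASE7 responded more in HCT116 (1.62, adjusted p 0.015), from a level there of 0.122 CPM, a call lost without HCT116 NIR replicate 2 (adjusted p 0.088) or 3 (0.053).

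Among the genes that fell, the decrease was smaller in HCT116 for LMNB1 (0.64, adjusted p 9.9e-07), E2F2 (0.84, 0.00014), HMGN5 (1.24, 1.4e-05), PTMA (1.05, 2.2e-06) and SAPCD2 (1.25, 2.1e-06). It was larger there for HMGB2 (-0.33, adjusted p 0.0020), which was no longer called without MCF10A IR replicate 2 (-0.18, adjusted p 0.11).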

How the results depend on the processing

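No called value changed sign under the settings tried. Among values not called, KRT5 turned from -0.07 to 0.01 with upper-quartile normalization. List medians that changed sign included that of simple keratins, from 0.06 to -0.005 without IR replicate 3. The median of heat shock chaperones, -0.18 in the main fit, turned positive without NIR replicate 2. Over all genes 1 count moved: genes called at least 2-fold higher numbered 1081, and 699 with a mean of at least 1 CPM, where 12829 genes are tested. Leaving out each library in turn gave 7684 to 8023 called genes (3566 to 3862 higher, 4098 to 4176 lower), with 981 to 1152 at least 2-fold higher and 493 to 536 lower. For the difference between the lines it gave 6274 to 6649 called (2577 to 3394 higher, 2906 to 3877 lower), with 450 to 640 and 1219 to 1548 at least 2-fold. A block for the replicate number, which did not pair the libraries, gave 8421 called genes (3934 higher, 4487 lower, 1092 and 522 at least 2-fold) and, for the difference between the lines, 6377 (2624 higher, 3753 lower). DESeq2 called 7841 genes (3816 higher, 4025 lower). Of the single-gene values under these settings, 4349 kept their side of the threshold, 116 lost and 6 gained a call, and the cause was not tested. Of the list medians, 97 moved and 622 stayed the same. Of the counts of called list members, 58 moved and 1380 stayed the same. Genes under 1 CPM rest on few counts, and their fold changes are the least certain.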

Other observations

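Genes called higher included neighbours in 5 chromosomal clusters, chosen after their values were seen and so not tested (RefSeq spans, GRCh38.p14). The epidermal differentiation complex (chromosome 1, 152212076 to 153057512) encodes proteins of the skin barrier. Only 10 of its 46 annotated genes had enough counts to test. Of these 9 were called higher, with a median log2 fold change of 2.17, and SPRR1B was not called. In the interleukin-1 cluster (chromosome 2, 112773925 to 113134014) IL1A, IL1B, IL1RN and IL36G were the 4 tested genes and all were called higher, with a median of 2.16. The 5 tested genes of the CXC chemokine cluster (chromosome 4, 73740569 to 74099195; median 1.40) and the 4 of the metalloproteinase cluster (chromosome 11, 102770502 to 102955732; median 2.88) were called higher as well. In the clade B serpin cluster (chromosome 18, 63476958 to 64019779) all 8 tested serpins were called higher, and the pseudogene ATP5MC1P6 was not called. Over all tested genes, 26.2% were called higher. The other 4 clusters hold 18, 17, 10 and 15 annotated genes, in the order given. Genes almost absent from the NIR group, such as IL1RN (0.138 CPM) and MMP10 (0.176 CPM), could pass the filter only through their IR counts. For such genes being tested favours a call of higher, so the shares of tested genes do not describe whole clusters.

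The kinds of RNA differed in their share of called genes. Of 12975 protein-coding genes 27.4% were called higher and 32.7% lower. Of 1334 long noncoding RNA genes 21.0% were called higher and 8.62% lower, with a median of 0.20. Of 496 pseudogenes 15.5% were called higher and 4.64% lower, with a median of 0.29, and reads of a pseudogene can come from its parent gene. The kinds were not matched for expression level. With no filter on low counts the median of all genes was 0.13, against 0.0035 in the main fit. Whether expression level plays a part in the shares was not tested. The IR libraries also had counts for more genes than the NIR libraries, 21075 to 21539 against 19356 to 19813. Whether this difference plays a part was not tested.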
